A study of Mus musculus with 8 samples.

Results

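The colony-stimulating factor (CSF) system was examined through 6 genes of the count table, the receptor genes Csf1r, Csf2ra, Csf2rb, Csf2rb2 and Csf3r and the ligand gene Csf1. They were taken by gene symbol, each matched 1 row, and they are 6 of the 15336 genes in the table. Messenger RNA was sequenced from Ly6Chi monocytes, the inflammatory blood monocytes that enter injured tissue, sorted out of the liver of 8 male mice on the C57BL/6 background. All mice were 8 weeks old, had been fasted and then given 300 mg/kg acetaminophen into the peritoneum, and were sampled 24 h later, when injury and inflammation are under way. All carry Commd10fl/fl alleles. The 4 controls (replicates 2, 3, 10 and 11) are weight-matched littermates with 0 counts of the cre transgene, and the 4 LysMDCommd10 mice (replicates 5, 6, 12 and 13), called deficient here, also carry a Cre recombinase expressed from the lysozyme M gene, which is active across myeloid cells. A group with the Cre and intact Commd10 was not analysed here, so loss of COMMD10, an endosomal trafficking subunit, cannot be told apart from effects of the Cre or of its insertion. Each library has its own animal number, and the sample descriptions write those numbers in 2 styles. By style, controls 2 and 3 go with deficient 5 and 6, here the lower-numbered set. Controls 10 and 11 go with deficient 12 and 13, the higher-numbered set. What parts them is not given in the labels.

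Macrophage CSF, the product of Csf1, binds the receptor tyrosine kinase encoded by Csf1r and sustains survival and differentiation of monocytes and macrophages. Granulocyte-macrophage CSF (GM-CSF) binds a specific alpha chain, encoded by Csf2ra, that signals through the beta common chain, encoded by Csf2rb and shared with the interleukin-3 and interleukin-5 receptors. Csf2rb2 is a mouse paralog that serves the interleukin-3 receptor, and Csf3r encodes the receptor for granulocyte CSF, best known on neutrophils.

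Promoter sequence from RefSeq (GRCm38.p6, from 250 bases before to 50 after the gene start) was matched for 4 of the 6 genes, Csf1, Csf2ra, Csf2rb2 and Csf3r. Those of Csf1 and Csf2rb2 are shown because these genes varied most between animals. Capitals mark matches, on either strand, to any of 4 motifs searched, namely the PU.1-type core GAGGAA, the STAT palindrome TTCNNNGAA, the C/EBP-type TTGCNNAA and an NF-kB-type motif (GGGA, 2 unspecified bases, then TTCC).
Csf1, chr3:107760420-107760719, minus strand: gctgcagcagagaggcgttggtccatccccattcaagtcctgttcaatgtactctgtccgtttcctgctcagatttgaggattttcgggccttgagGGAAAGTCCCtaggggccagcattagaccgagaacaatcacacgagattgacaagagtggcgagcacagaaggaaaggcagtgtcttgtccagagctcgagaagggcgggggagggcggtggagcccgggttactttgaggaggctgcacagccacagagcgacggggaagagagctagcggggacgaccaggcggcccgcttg
Csf2rb2, chr15:78305672-78305971, minus strand: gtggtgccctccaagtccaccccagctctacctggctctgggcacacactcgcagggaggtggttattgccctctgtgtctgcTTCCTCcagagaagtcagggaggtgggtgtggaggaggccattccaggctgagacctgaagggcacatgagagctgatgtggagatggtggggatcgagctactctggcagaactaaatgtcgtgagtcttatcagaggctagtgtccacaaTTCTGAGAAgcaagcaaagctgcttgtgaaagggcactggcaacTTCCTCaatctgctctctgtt
The Csf1 window held a single match, to the NF-kB-type motif, which starts at position -154 from the gene start. The same motif was present in 1.43% of 27025 promoters of this length, and in that of Csf3r. The Csf2rb2 window held 2 PU.1-type cores (at -167 and 30), found in 28.3% of promoters, and 1 STAT palindrome (at -15), found in 8.47%. The Csf2ra window held 2 PU.1-type cores and the Csf3r window 1, and none of the 4 windows held the C/EBP-type motif, present in 10.8% of promoters. These are matches of letters and not measured binding sites.

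The libraries held 13327665 to 15759224 counts in genes. Commd10, the targeted gene, was lower in deficient animals (log2 fold change -0.94, SE 0.18, adjusted p = 0.0110, or 0.290 without the label set, edgeR quasi-likelihood, BH) and did not overlap between the groups. Genotype was compared with the label set in the model, in which 1697 of 12178 tested genes were called at a Benjamini-Hochberg (BH) adjusted p under 0.05, or 13.9% (6.59% higher and 7.35% lower). Without the label set edgeR called 0 genes, with 1519 at an unadjusted p under 0.05, and DESeq2 called 158. The sorted cells carried the defining monocyte transcripts, with Ly6c2 at 212 to 355 CPM (counts scaled to library size) and Ccr2 at 1052 to 1725 CPM. The 7 monocyte markers themselves moved, with 3 higher and 1 lower by genotype, and summed to 6771 to 9915 CPM among controls and 8082 to 17693 CPM among deficient animals, of which Fn1 alone made up 2720.3 to 14017 CPM over the libraries. Neutrophil markers summed to 103 to 239 CPM among controls and 336 to 647 CPM among deficient animals, with Ly6g and Camp not among the rows analysed here and Mpo, Elane, Ngp, Ltf and Retnlg at 1.65 CPM or less in every library. Of the 8 neutrophil markers tested, 5 rose and 0 fell, and the sum was made up mainly of Mmp8, Lcn2 and S100a8, with means of 158, 95.3 and 51.7 CPM over all libraries. Hepatocyte markers summed to 138 to 358 CPM among controls and 101 to 136 CPM among deficient animals, and 5 of 8 fell. In bulk samples fewer cells of a type and less RNA per cell cannot be told apart.

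Per length of exon, Csf1r was the most abundant of the 6 transcripts in both groups. It averaged 521 ± 53.0 CPM per kb among controls and 435 ± 45.2 CPM per kb in deficient animals (SD, n = 4 each). Csf2ra followed at 238 ± 14.4 and 219.6 ± 16.5 CPM per kb, then Csf3r at 99.3 ± 11.2 and 86.7 ± 12.5 CPM per kb. Csf2rb stood at 61.9 ± 4.61 and 74.6 ± 11.2 CPM per kb, Csf2rb2 at 32.6 ± 2.26 and 44.4 ± 14.4 CPM per kb, and Csf1 was lowest, at 1.18 to 5.19 and 2.32 to 26.1 CPM per kb. In controls no neighbours in this order overlapped in range. In deficient animals Csf3r (69.6 to 99.7 CPM per kb) overlapped with Csf2rb (61.4 to 86.9 CPM per kb), and Csf2rb with Csf2rb2 (27.4 to 62.7 CPM per kb). With the longest protein-coding transcript as the length, Csf3r and Csf2rb also overlapped in controls (92.4 to 116 and 82.1 to 97.8 CPM per kb), so their order rests on the length used. With that length Csf2rb (91.2 to 129.0 CPM per kb) ranked above Csf3r (72.1 to 103 CPM per kb) in deficient animals by mean, and Csf2rb2 (27.4 to 62.7 CPM per kb) overlapped with Csf1 (2.94 to 33.0 CPM per kb). The 6 genes together took 0.439% to 0.510% of the counts in controls and 0.383% to 0.478% in deficient animals.

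**Figure D1:**
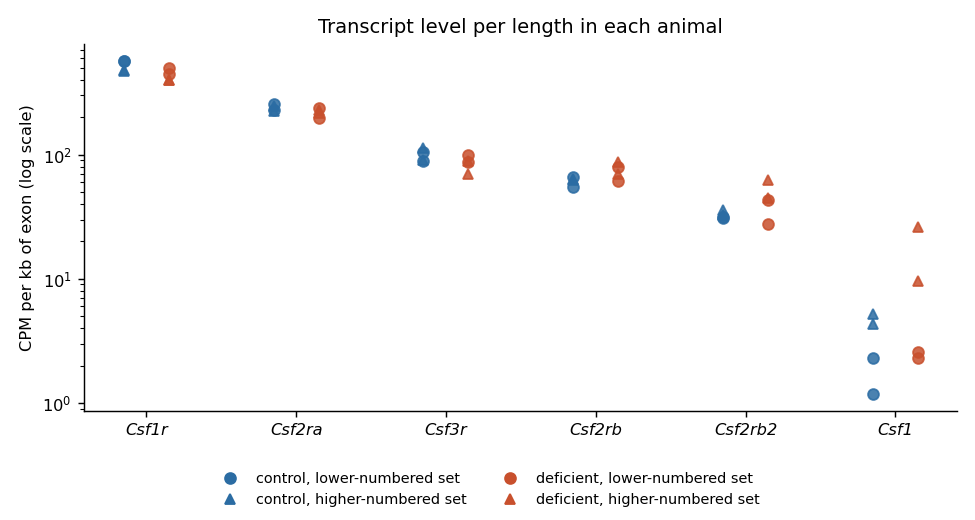
CPM per kb of exon for each gene and animal, on a log axis, with circles for the lower-numbered and triangles for the higher-numbered set. Csf1r lay highest (400 to 571 CPM per kb) and Csf1 lowest (1.18 to 26.1 CPM per kb), and only Csf1 spread over more than 10-fold.

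Of the 6 genes, 1 was called between the genotypes (Csf1r, lower), beside 13.9% called of all genes tested. At an unadjusted p under 0.05 were 4 of the 6, beside 3761 of all 12178 genes tested. None of the 6 was free of overlap between the groups over all 8 animals, where 7.02% of tested genes were (3.62% higher and 3.4% lower in deficient animals). With each set fitted alone 0 of the 6 were called, against 0.376% of genes in the lower- and 5.21% in the higher-numbered set. Within both label sets both deficient animals lay above both controls for Csf1 and under both for Csf1r, which held for 27.3% of tested genes in some direction. The 2 sets did not differ detectably in the genotype difference of any of the 6 genes (interaction term, adjusted p from 0.749 to 0.988, edgeR quasi-likelihood, BH), in a test that called 0.0411% of all genes (0.0246% higher and 0.0164% lower).

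**Figure D2:**
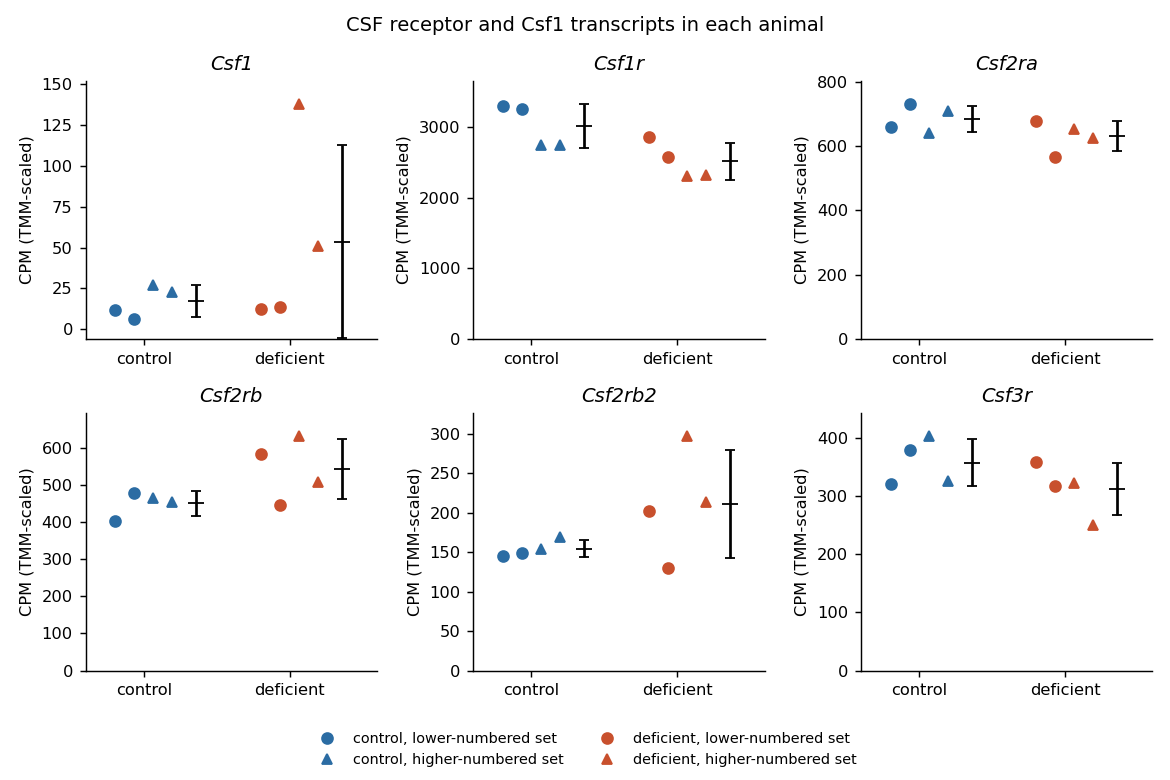
CPM of each of the 6 genes in each animal, scaled by TMM, with circles for the lower-numbered and triangles for the higher-numbered set and bars for the group mean ± SD. Csf1 reached 138 and 50.9 CPM in the higher-numbered deficient animals against 6.25 to 27.4 CPM in controls, while Csf1r lay at 2309 to 2861 CPM in deficient animals and 2741 to 3295 CPM in controls.

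Csf1 (ENSMUSG00000014599, GRCm38 chromosome 3, 107741048 to 107760469, minus strand), the ligand gene, was high in 2 animals. Its level was 12.1, 6.25, 27.4 and 23.0 CPM for controls 2, 3, 10 and 11, against 12.3, 13.5, 138 and 50.9 CPM for deficient replicates 5, 6, 12 and 13. These levels rest on 94 to 1991 counts. The higher-numbered deficient animals stood above all others, and the lower-numbered deficient animals lay close to control 2. In the lower-numbered set deficient replicate 5 exceeded control 2 by less than the gap between the controls. The log2 fold change of deficient over control was 1.32 (SE 0.39), a 2.49-fold difference with a 95% interval of 1.37 to 4.54, which just missed the threshold (adjusted p = 0.0509, edgeR quasi-likelihood, BH). It was 0.49 in the lower-numbered set alone and 1.90 in the higher-numbered set alone, and the interaction term was 1.42 with a 95% interval of -0.06 to 2.89. That term was 0.52 without deficient replicate 12 and 0.86 without control 2. Without deficient replicate 12 the genotype log2 fold change was 0.74 over all remaining animals (adjusted p = 0.0737). The call was gained without control 2 (adjusted p = 0.0285), without deficient replicate 5 (0.0449), without deficient replicate 13 (0.0480) and with no count filter (0.0497, all edgeR quasi-likelihood, BH).

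Csf1 differed more by label set than by genotype in size. It was higher in the higher-numbered set by a log2 difference of 2.23 ± 0.39 (SE; edgeR quasi-likelihood, BH-adjusted p = 0.00230), 4.68-fold with a 95% interval of 2.55 to 8.61. The mean went from 9.20 to 25.2 CPM between the sets in controls and from 12.9 to 94.4 CPM in deficient animals. Over all genes 36.9% were called between the sets, and among the 6 genes 2 were, Csf1 (higher) and Csf1r (lower). Csf2rb2 was higher in the higher-numbered set by 0.38 ± 0.16 (log2, SE) and was not called (adjusted p = 0.0903, edgeR quasi-likelihood, BH). DESeq2 on the same design called it, at 0.38 (adjusted p = 0.0478). Endothelial cells and fibroblasts are known sources of Csf1. Summed endothelial markers were 40.2, 39.2, 137 and 164 CPM for controls 2, 3, 10 and 11, against 32.4, 79.9, 207 and 157 CPM for deficient replicates 5, 6, 12 and 13, with 1 of 7 tested lower and 0 higher by genotype. Summed stellate cell and fibroblast markers ranged from 3.19 to 9.40 CPM among controls and from 2.95 to 3.89 CPM among deficient animals. The endothelial sum moved with the label set. It was made up mainly of Pecam1, with a mean of 67.6 CPM over all libraries (11.8 to 174 CPM). Kdr and Cdh5 had means of 12.1 and 9.39 CPM, and Stab2, Clec4g, Lyve1 and Oit3 had means of 6.98, 3.84, 2.47 and 4.64 CPM. The part of endothelial cells in the Csf1 difference was not tested.

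Csf1r (ENSMUSG00000024621, chromosome 18, 61100598 to 61132149, plus strand), the receptor for macrophage CSF, fell modestly with deficiency. Levels were 3295, 3255, 2750.1 and 2741 CPM for controls 2, 3, 10 and 11, against 2861, 2568, 2309 and 2316 CPM for deficient replicates 5, 6, 12 and 13. Each deficient animal lay under both controls of its set, while deficient replicate 5 lay above the higher-numbered controls. The mean fell from 3010.3 ± 306 to 2513 ± 261 CPM (mean ± SD over 4 animals per group), with a log2 difference of -0.26 ± 0.06 (SE; edgeR quasi-likelihood, BH-adjusted p = 0.0308) or 0.836-fold with a 95% interval of 0.755 to 0.924. The difference was nearly equal in the sets, at -0.27 (lower-numbered) and -0.25 (higher-numbered) on the log2 scale. The gene was lower in the higher-numbered set as well, by a log2 fold change of -0.24 ± 0.06 (SE; edgeR quasi-likelihood, BH-adjusted p = 0.0165). That call was lost without control 10, at -0.24 (adjusted p = 0.0521).

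By edgeR the call for Csf1r was close to the threshold, while DESeq2 on the same design gave a log2 fold change of -0.26 with an adjusted p of 0.000257. The direction did not change in any alternative run. The edgeR call remained without deficient replicate 5 (adjusted p = 0.0305). It was lost without control 2 (0.0769), control 3 (0.0642), control 10 (0.0675), control 11 (0.0724), deficient replicate 6 (0.0752), deficient replicate 12 (0.0783) or deficient replicate 13 (0.0671), over which the log2 fold change ranged from -0.26 to -0.23. It was also lost without the label set in the model (adjusted p = 0.408) and in either set alone (0.247 and 0.174, all edgeR quasi-likelihood, BH), and DESeq2 without the label set gave an adjusted p of 0.241. Of its exon bases 873, or 15.1%, overlap Hmgxb3 on the opposite strand, and the strand setting of the counting is not given in the sources used here. Hmgxb3 had 503 to 761 counts per library, 1.03% to 2.28% of the Csf1r counts. Its own log2 fold change was 0.25 ± 0.06 (SE; edgeR quasi-likelihood, BH-adjusted p = 0.0213), in the opposite direction.

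**Figure D3:**
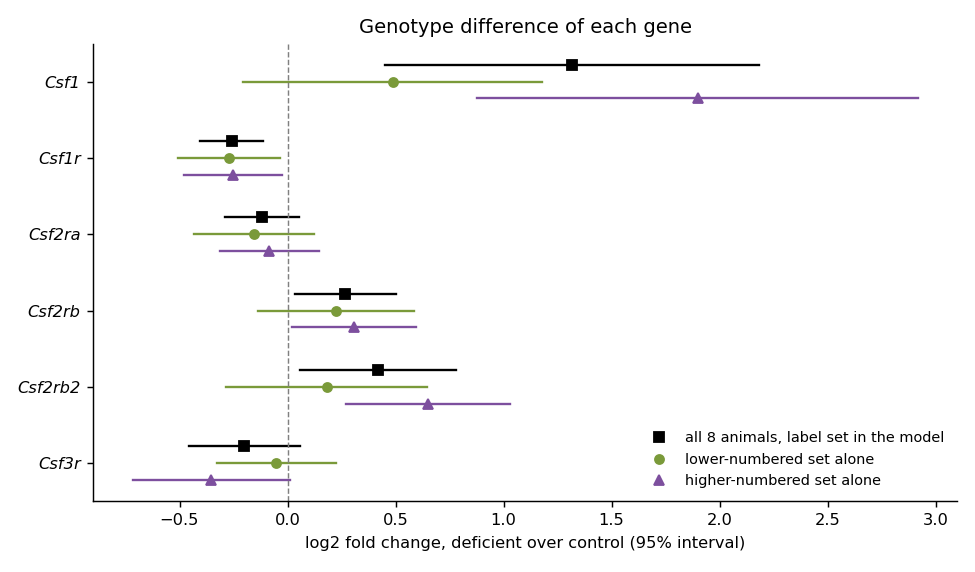
Log2 fold change of deficient over control with its 95% interval for each gene, for the model of all 8 animals with label set as covariate (squares) and for the lower-numbered (circles) and higher-numbered (triangles) set alone. The interval of Csf1r ran from -0.40 to -0.11 over all animals, and that of Csf1 from 0.45 to 2.18.

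Neither chain of the GM-CSF receptor passed the test between the genotypes. Csf2ra (ENSMUSG00000059326, chromosome 19, 61223957 to 61228429, minus strand), the alpha chain gene, stood at 658, 729, 642 and 709 CPM for controls 2, 3, 10 and 11, against 678, 567, 652 and 626 CPM for deficient replicates 5, 6, 12 and 13. The groups overlapped over all animals and within each set. The log2 fold change was -0.12 ± 0.08 (SE; edgeR quasi-likelihood, BH-adjusted p = 0.319), with a 95% interval of 0.819 to 1.04 as a fold, which includes the fold seen for Csf1r. Csf2ra was the steadiest of the 6 genes, with 1.29-fold between its lowest and highest animal.

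Csf2rb (ENSMUSG00000071713, chromosome 15, 78325752 to 78353847, plus strand), the beta common chain gene, stood at 402, 479, 465 and 454 CPM for controls 2, 3, 10 and 11. In deficient replicates 5, 6, 12 and 13 it stood at 583, 447, 632 and 509 CPM. Deficient replicates 5, 12 and 13 lay above all controls and replicate 6 among them. The log2 fold change was 0.27 ± 0.10 (SE; edgeR quasi-likelihood, BH-adjusted p = 0.117), with a 95% interval of 1.02 to 1.42 as a fold. The difference did not pass the test.

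Csf2rb2 (ENSMUSG00000071714, chromosome 15, 78282507 to 78305721, minus strand), the interleukin-3 beta chain gene, stood at 145, 149, 154 and 169 CPM for controls 2, 3, 10 and 11. In deficient replicates 5, 6, 12 and 13 it stood at 203, 129.9, 297 and 213 CPM. The same 3 deficient animals lay above all controls and replicate 6 lay below them. The log2 fold change was 0.42 ± 0.16 (SE; edgeR quasi-likelihood, BH-adjusted p = 0.111), with 0.18 in the lower- and 0.65 in the higher-numbered set alone. Without deficient replicate 6 it was 0.58 and was called (adjusted p = 0.0190), and without deficient replicate 12 it was 0.27 and was not (adjusted p = 0.285, both edgeR quasi-likelihood, BH). The SD of Csf2rb2 was 10.7 CPM among controls and 68.4 CPM in deficient animals, the widest spread in deficient animals relative to the mean after Csf1 (32.5% and 109.9%).

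The paralogs lie 20030 bases apart on chromosome 15 in opposite orientation. Their longest transcripts were identical at 93.3% of 4545 aligned bases. Of the distinct 75-base stretches of their transcripts, the length of 1 read, 518 were present in both genes, which is 7.15% of those of Csf2rb and 10.6% of those of Csf2rb2. Reads from such stretches cannot be assigned to either gene, and how the authors' counting treated them is not given in the sources used here. With both rows summed, the log2 fold change was 0.31 ± 0.12 (SE; edgeR quasi-likelihood, BH-adjusted p = 0.104), 0.41 without deficient replicate 6 (adjusted p = 0.0353) and 0.24 and 0.21 without deficient replicates 5 and 12 (adjusted p of 0.217 and 0.279). Csf2rb2 made up 23.7% to 27.1% of the summed counts in controls. Its share in deficient animals was 25.8% and 22.5% in replicates 5 and 6, and 32.0% (95% Wilson interval 31.2% to 32.8%) and 29.5% (28.7% to 30.4%) in replicates 12 and 13. The higher-numbered deficient animals thus had the highest shares, above control 11 at 27.1% (26.2% to 28.1%), and the groups overlapped. These intervals cover counting error only.

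Counts of Csf2rb per count of Csf2ra, a ratio that scaling between libraries does not affect, separated the groups. The ratio was 0.612, 0.658, 0.725 and 0.641 in controls 2, 3, 10 and 11, and 0.861, 0.788, 0.970 and 0.813 in deficient replicates 5, 6, 12 and 13. The mean was 0.659 ± 0.0478 in controls and 0.858 ± 0.0805 in deficient animals (SD, n = 4 each). No value of the groups overlapped. Of all tested genes 6.21% were higher per Csf2ra count throughout the deficient group than throughout the control group, which is the background for this count. The ratio was formed from genes chosen with earlier results of these data known and is given with no test.

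**Figure D4:**
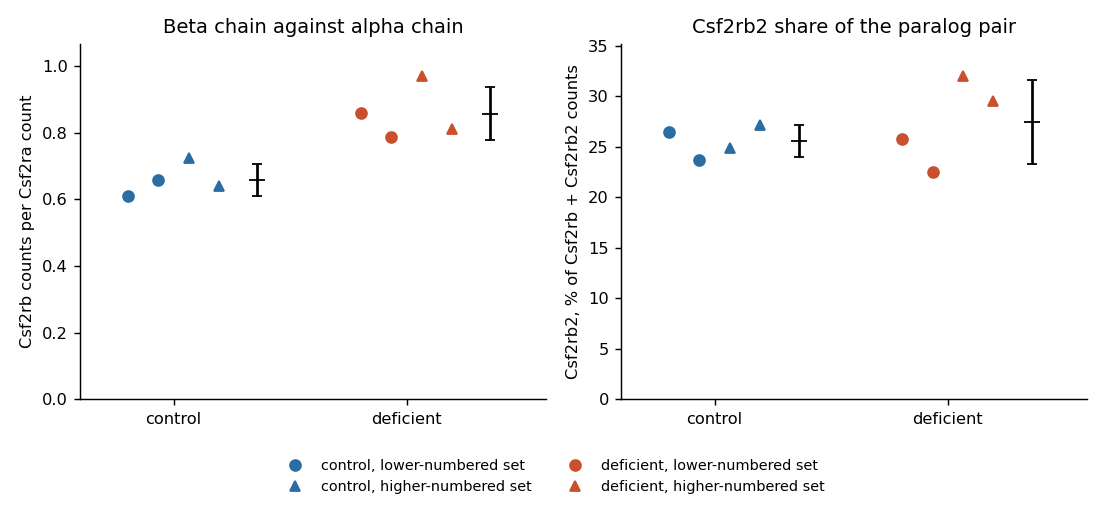
Counts of Csf2rb per count of Csf2ra and the share of Csf2rb2 in the summed counts of Csf2rb and Csf2rb2, for each animal, with group mean and SD. The ratio ran from 0.612 to 0.725 in controls and from 0.788 to 0.970 in deficient animals, and the share overlapped between the groups.

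Csf3r (ENSMUSG00000028859, chromosome 4, 126024550 to 126044440, plus strand), the granulocyte CSF receptor gene, stood at 322, 380.3, 404 and 327 CPM for controls 2, 3, 10 and 11. In deficient replicates 5, 6, 12 and 13 it stood at 359.6, 317, 323 and 251 CPM. The groups overlapped over all animals, with deficient replicate 13 lowest. The log2 fold change was -0.20 ± 0.11 (SE; edgeR quasi-likelihood, BH-adjusted p = 0.263), with a 95% interval of 0.729 to 1.04 as a fold, and -0.05 and -0.35 in the lower- and higher-numbered set alone. Summed neutrophil markers, given above, did not overlap and were higher with deficiency, while Csf3r, which neutrophils carry, was not. Their part in the Csf3r level was not tested.

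The patterns most like each gene were taken as the highest Pearson correlations of log2 CPM over the 8 animals, among 10983 tested named genes. The animals form 2 label sets and share their scaling, so these are descriptions with no test. Csf1r was closest to Fcer1g, the gene of the common Fc receptor gamma chain (r = 0.999), then to Cabin1 (0.996) and Fbxl12 (0.986). Csf1 was closest to Cox5b (0.994), a respiratory chain subunit gene, to Arf4 (0.987) and to Tubgcp2 (0.985). The likeness is in shape and not in size, since the genotype log2 fold change was 0.07 for Cox5b and 1.32 for Csf1. Csf2rb2 was closest to G2e3 (0.986), Vps8 (0.980) and Arfgap3 (0.973). Csf2rb was closest to Safb2 (0.942), Zmym5 (0.936) and the cytokine receptor kinase gene Jak3 (0.935). The highest value for Csf2ra was 0.950, with Csnk1e, followed by Serpinf1 (0.931, at a mean of only 1.05 CPM) and Smarcd1 (0.923). For Csf3r it was 0.953, with Tusc1, followed by Parp2 (0.935) and Actr5 (0.928). Of these genes Fcer1g, Cabin1 and Fbxl12, all beside Csf1r, were called lower in deficient animals. Their log2 fold changes were -0.26, -0.24 and -0.50 (adjusted p = 0.0229, 0.0242 and 0.0178, edgeR quasi-likelihood, BH). They were picked for their likeness to Csf1r over the same 8 animals, so their calls are not independent of the Csf1r call. They add no separate evidence for the fall of Csf1r.

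Other ligands of the family were scarce in these cells. Of 8 ligand genes listed, 2 were tested, and neither Csf1 nor Flt3l was called. Flt3l, the gene of the FLT3 ligand that drives dendritic cell development, was at 6.40 ± 0.450 CPM among controls against 6.26 ± 1.01 CPM among deficient animals (mean ± SD, n = 4 each). Both deficient animals lay above both controls in the lower-numbered set and under both in the higher-numbered set. The log2 fold changes of the sets alone were 0.24 and -0.33. Csf3 had 0, 0, 1 and 3 counts in controls 2, 3, 10 and 11 and 0, 0, 3 and 6 counts in deficient replicates 5, 6, 12 and 13, too few to compare. A count of 0 allows up to 0.216 CPM in the libraries without a Csf3 count, for counting error only. Kitl had 0 to 18 counts, and Csf2, Il3, Il5 and Il34 are not among the rows analysed here.

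Of 8 receptor genes tested in the family, 2 fell and 0 rose, Csf1r and Flt3, beside 7.35% lower and 6.59% higher of all genes tested. Flt3, the receptor gene of dendritic cell precursors, was at 7.80, 13.2, 4.73 and 5.31 CPM for controls 2, 3, 10 and 11, against 5.80, 4.53, 1.45 and 2.23 CPM for deficient replicates 5, 6, 12 and 13. Its log2 fold change was -1.19 ± 0.22 (SE; edgeR quasi-likelihood, BH-adjusted p = 0.00984), and within either set both deficient animals lay under both controls. Summed dendritic cell markers, which include Flt3, ranged from 15.8 to 28.3 CPM among controls and 8.38 to 14.2 CPM among deficient animals, with 3 of 6 tested lower and 0 higher, and their part was not tested. Il3ra, the interleukin-3 alpha chain gene, was at 48.2 ± 8.85 and 42.8 ± 2.61 CPM (SD, n = 4 each, adjusted p = 0.339, edgeR quasi-likelihood, BH).

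Below the receptors, few kinase and adaptor genes were called. Of 23 tested, 1 fell and 0 rose, 4.35% against 13.9% of all genes, with a median log2 fold change of -0.08 against -0.00028 over all genes. The member called was Fes, a cytoplasmic tyrosine kinase gene of myeloid cells, which fell from 449 ± 49.2 to 378 ± 64.8 CPM (mean ± SD over 4 animals per group), with a log2 difference of -0.26 ± 0.07 (SE; edgeR quasi-likelihood, BH-adjusted p = 0.0317). By label set 11 of the 23 were lower and 2 higher in the higher-numbered set, beside 18.3% lower and 18.6% higher of all genes.

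Among 14 response and feedback genes of STAT3 and STAT5, the factors that CSF receptors activate, 2 rose and 0 fell, with a median log2 fold change of 0.27. The share called, 14.3%, was close to the 13.9% of all genes. Between the label sets, 9 of the 14 were higher and 3 lower in the higher-numbered set, beside 18.6% and 18.3% of all genes. Cish and Pim1 of this list are also among the GM-CSF response genes below. Socs3, a feedback inhibitor of granulocyte CSF and interleukin-6 family signals, was at 97.3, 104, 344 and 307 CPM for controls 2, 3, 10 and 11. It was at 159, 164, 517 and 544 CPM in deficient replicates 5, 6, 12 and 13. The levels were lower in the lower-numbered set and, within each set, higher in both deficient animals. Its log2 fold change was 0.69 ± 0.06 (SE; edgeR quasi-likelihood, BH-adjusted p = 0.000969). Socs2, a STAT5-induced inhibitor gene, rose by 1.41 (log2, SE 0.31, adjusted p = 0.0189, edgeR quasi-likelihood, BH). It had 11, 14, 162 and 75 counts in controls 2, 3, 10 and 11, and 19, 42, 398 and 306 in deficient replicates 5, 6, 12 and 13. Its label set effect was larger, at 3.45 on the log2 scale. Cish, a classic STAT5 target, was at 27.7 ± 28.9 CPM among controls against 46.3 ± 40.9 CPM among deficient animals (mean ± SD, n = 4 each) and was not called (adjusted p = 0.153, edgeR quasi-likelihood, BH).

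Of 9 tested genes known to respond to GM-CSF, 3 rose and 0 fell, 33.3% against 13.9% of all genes called in either direction and 6.59% higher, with a median log2 fold change of 0.51. The transcription factor gene Bhlhe40 rose from 191 ± 88.0 to 365 ± 198 CPM (SD, n = 4 each), by a log2 difference of 0.89 ± 0.10 (SE; edgeR quasi-likelihood, BH-adjusted p = 0.00182). The arginase gene Arg1 (3.12, SE 0.62, adjusted p = 0.0138) and the fatty acid carrier gene Fabp4 (0.68, SE 0.17, adjusted p = 0.0317, both edgeR quasi-likelihood, BH) also rose. All 3 differed more by label set, by a log2 difference of 1.32 (Bhlhe40), 4.90 (Arg1) and 2.26 (Fabp4). For each of them the lower-numbered deficient animals lay under the higher-numbered controls. By label set 7 of the 9 were higher in the higher-numbered set and 0 lower, beside 18.6% and 18.3% of all genes.

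The early response list of CSF1R held 12 tested genes, of which 2 rose and 1 fell, 25.0% against 13.9% of all genes. The AP-1 gene Fosl1 rose by 1.96 (log2, SE 0.32) and Ier3 by 0.80 (SE 0.15). Fosl1 was near the floor, with 3, 13, 24 and 18 counts in controls 2, 3, 10 and 11. It had 30, 24, 116 and 75 counts in deficient replicates 5, 6, 12 and 13. Ccnd1, the cyclin D1 gene induced by macrophage CSF, fell from a mean of 49.3 CPM to 18.6 CPM, a log2 fold change of -1.44 ± 0.25 (SE; edgeR quasi-likelihood, BH-adjusted p = 0.00818). By label set 10 of the 12 were higher and 1 lower in the higher-numbered set, beside 18.6% and 18.3% of all genes.

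Of 17 transcription factor genes known to act on CSF receptor genes or beside them, 4 rose and 4 fell, 47.1% against 13.9% of all genes, with a median log2 fold change of -0.06. Cebpa, a factor required for myeloid commitment, was at 385, 357, 411 and 389 CPM for controls 2, 3, 10 and 11, against 305, 289, 346 and 298 CPM for deficient replicates 5, 6, 12 and 13. Its groups did not overlap, and its log2 fold change was -0.32 ± 0.06 (SE; edgeR quasi-likelihood, BH-adjusted p = 0.0149). The granulocyte factor gene Cebpe rose from 2.09 ± 0.898 to 5.44 ± 2.30 CPM, and the related factor genes Mitf (0.43, SE 0.09) and Tfec (1.11, SE 0.19) rose on the log2 scale. Spi1, which encodes PU.1, the main activator of Csf1r, was at 839 ± 116 CPM among controls against 795 ± 134 CPM among deficient animals (mean ± SD, n = 4 each) and was not called (adjusted p = 0.482, edgeR quasi-likelihood, BH).

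Of 11 tested genes of receptor shedding and turnover, 2 rose and 1 fell, 27.3% against 13.9% of all genes, with a median log2 fold change of 0.02. Rhbdf2, the partner of the ADAM17 protease that sheds CSF1R, rose from 149 ± 16.8 to 183 ± 23.0 CPM (mean ± SD over 4 animals per group), with a log2 difference of 0.30 ± 0.08 (SE; edgeR quasi-likelihood, BH-adjusted p = 0.0382). Its paralog Rhbdf1 fell by 1.14 on the log2 scale, from 2.19 ± 0.521 to 0.982 ± 0.225 CPM, and the endosomal sorting gene Stam rose by 0.25 (SE 0.07). Rhbdf1 was near the floor, with 9 to 41 counts per library. Adam17 itself was at 279 ± 13.9 and 320.0 ± 43.0 CPM (SD, n = 4 each) and was not called (adjusted p = 0.165, edgeR quasi-likelihood, BH).

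**Figure D5:**
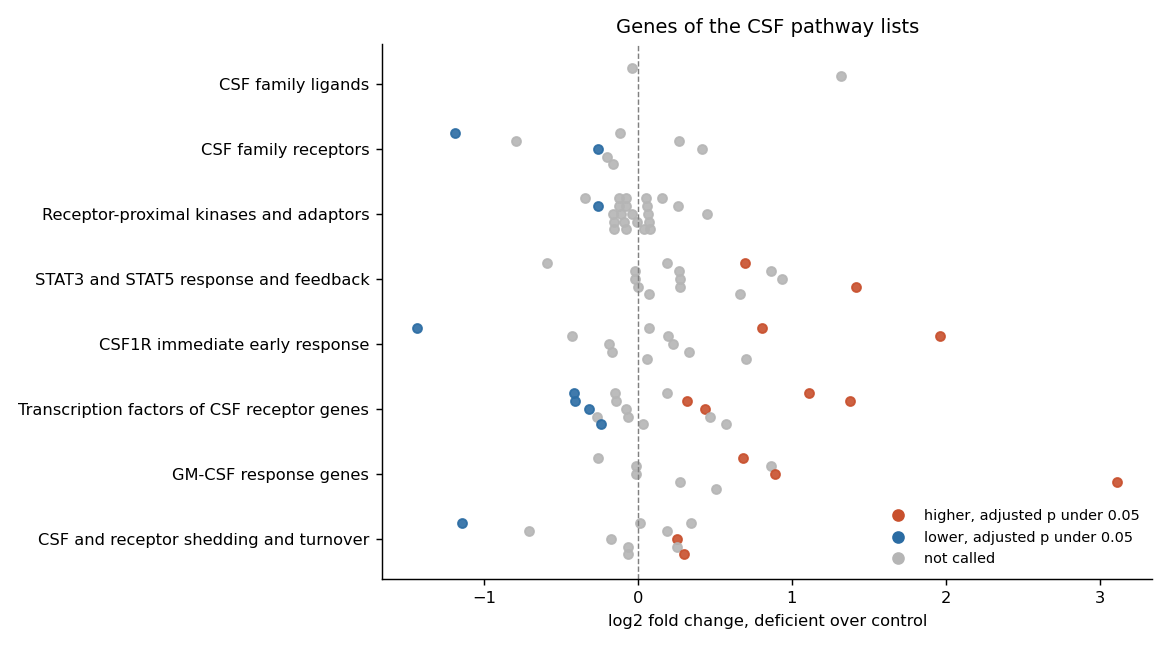
Log2 fold change of deficient over control for every tested gene of the 8 pathway lists, coloured by call. The kinases and adaptors had 1 of 23 called, and the transcription factors had 4 genes called on each side.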

How the data were processed

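Counts were taken from the table the authors deposited, holding 1 column of raw counts for every library. Beside them the authors deposited a normalised signal, which by its values rescales a library's counts by 1 common factor and was not used in a test. The submitters' processing notes name GRCm38 as the build and, without roles, HTSeq 0.12.4, STAR 2.7.3a, DESeq2 1.26.0 and cutadapt. The table holds 15336 genes and 1 cre transgene row, which was left out. Every gene reaches at least 6 counts in some animal. Positions and exon lengths came from GENCODE M21, also on GRCm38.

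Genes were kept by filterByExpr (minimum count 10, minimum total 15), which left 12178 and removed 3158, and all 6 genes passed. Libraries were scaled by trimmed mean of M-values (TMM, factors 0.944 to 1.035), and CPM values use this scaling. Genotype, label set and their interaction were tested with edgeR 4.0.16 (R 4.3.3), quasi-likelihood F-test, two-sided, BH over all genes tested. The SE is the size of the log2 fold change divided by the square root of F. Alternatives were DESeq2 1.42.0, relative log expression (RLE) and upper-quartile factors, no count filter, at least 5 CPM in 4 libraries, no label set, each set alone and leaving out each animal. DESeq2 without the label set was added after seeing the data. The code was tested on simulated data. Members, lists, the ratio and the label set covariate were chosen with earlier results of these data known. Genes named beside the members were up to 4 called genes of each list by smallest p, or 2 where none was called, and a few further genes (Cish, Spi1, Adam17, Il3ra) were chosen after their values were seen. Hgs was left out of its list, since 2 rows carry its symbol.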

Additional observations from a re-analysis of the deposited data

How the results depend on the processing

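No paired analysis was run. Control and deficient animals carry different numbers, and the labels do not say which of them shared a litter or were matched. The genotype direction of all 6 genes held in all 102 alternative values, and 86 of them stayed on the same side of the threshold. Besides the values given with Csf1r, Csf1 and Csf2rb2, the log2 fold change of Csf1r was -0.26 without the label set (edgeR and, at an adjusted p of 0.241, DESeq2), and -0.27 and -0.25 in the lower- and higher-numbered set alone. That of Csf1 was 1.32 with no count filter. Leaving out single animals gave log2 fold changes of 0.74 to 1.65 for Csf1, -0.29 to -0.23 for Csf1r, -0.16 to -0.06 for Csf2ra, 0.19 to 0.35 for Csf2rb, 0.27 to 0.58 for Csf2rb2, -0.28 to -0.10 for Csf3r and 0.21 to 0.41 for the summed paralogs. The number of genes called by genotype was 697 to 1685 over those omissions (697 leaving out deficient replicate 12, 739 control 11, 973 control 2 and 1000 deficient replicate 13). It was 0 without the label set (158 by DESeq2), 46 in the lower- and 646 in the higher-numbered set alone. The interaction called 5 genes, 65 by DESeq2, 1 with the stricter filter and 0 to 1 without single animals. The label set effect of Csf2ra, -0.00035, reversed to 0.0061 by DESeq2 and 0.0062 with RLE factors, and without control 3 (0.036), control 10 (0.034), deficient replicate 5 (0.043) and deficient replicate 13 (0.0051). That of Csf3r reversed to 0.011 without deficient replicate 13. Over all single omissions these set effects ran from -0.058 to 0.043 for Csf2ra and from -0.18 to 0.011 for Csf3r, and the interactions of Csf1, Csf1r and Csf2rb from 0.52 to 1.96, from -0.053 to 0.10 and from -0.093 to 0.29. The interaction of Csf2rb reversed without control 3 (-0.045), deficient replicate 6 (-0.093) and deficient replicate 12 (-0.084), and without deficient replicate 6 so did that of Csf1r (-0.053) and Csf2ra (-0.048). None of these reversed values was called, and the cause was not tested. Receptor genes had 1808 counts or more in each library, and Csf1 94 or more.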

Other observations

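Set against its receptor, Csf1 gave 3.68, 1.92, 9.97 and 8.41 counts per 1000 Csf1r counts in controls 2, 3, 10 and 11, and 4.29, 5.26, 59.7 and 22.0 in deficient replicates 5, 6, 12 and 13. The higher-numbered deficient animals had the highest values. Csf1r itself was lower in both deficient animals of each set, which raises such a ratio there. How many of all genes part the groups per Csf1r count was not counted. The level of Csf1r per length was 4.25 to 6.40 times that of Csf3r in controls and 4.46 to 5.77 times in deficient animals, with overlap between the groups. Csf2rb and Csf2rb2 together gave 0.832 to 0.965 counts per Csf2ra count in controls and 1.02 to 1.43 in deficient animals, without overlap. Of single genes tested, 6.21% were likewise higher per Csf2ra count without overlap. These values were formed after earlier results of these data were known and were not tested.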
